A study of Mus musculus with 24 samples.

Results

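The expression of the core genes of insulin signalling was examined in liver-specific *Crif1* knockout (LKO) and control (Ctrl) mice. The list held 9 genes, chosen for their place in the pathway: *Insr*, *Irs1*, *Irs2*, *Pik3r1*, *Pik3ca*, *Akt1*, *Akt2*, *Slc2a4* and *Tbc1d4*. Each was found once, by gene symbol, among the 24532 genes of the deposited table. LKO mice were Alb-Cre;Crif1flox/flox and Ctrl mice were Crif1flox/flox without Cre, so both genotypes carried the floxed alleles and only LKO mice carried the transgene. All mice were C57BL/6, 8 weeks old and chow-fed. The albumin promoter drives Cre in hepatocytes. *Crif1*, a gene for a protein of the mitochondrial ribosome that is listed as *Gadd45gip1*, was not measured in single cell types of the liver. RNA-seq was performed on liver, inguinal white adipose tissue (iWAT), gastrocnemius muscle (GM) and hypothalamus, with 3 libraries per genotype and tissue and 24 libraries in all. Nothing in the labels says how libraries of different tissues relate to single mice, so p-values measure the spread between these libraries.

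Insulin binds the receptor tyrosine kinase encoded by *Insr*, which phosphorylates the adaptor proteins IRS1 and IRS2. The adaptors recruit PI3-kinase, a regulatory subunit (*Pik3r1*) paired with a catalytic one (*Pik3ca*), and the lipid it makes brings AKT1 and AKT2 to the membrane. In fat and muscle AKT phosphorylates TBC1D4 (AS160), which releases vesicles carrying the glucose transporter GLUT4 (*Slc2a4*), whereas in hepatocytes AKT restrains glucose production and promotes lipid synthesis. Much of this control is exerted on proteins. The values given here are transcript levels.

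The libraries held between 4.45 and 8.09 gigabases of aligned sequence (median 5.19), estimated from the ratio of the deposited coverage to FPKM, which counts fragments by transcript length and library size. *Crif1* stood at 14.6, 12.5 and 13.6 FPKM in Ctrl livers and at 5.40, 2.002 and 2.51 FPKM in LKO livers, a log2 fold change of -1.84 ± 0.27 (SE; adjusted p = 0.00357, limma). It did not pass the test in iWAT (-0.22 ± 0.12) or GM (0.02 ± 0.13). Changes were tested on log2(FPKM + 1) with limma in each tissue, over genes that reached 1 FPKM in at least 3 of its 6 libraries, and a gene was called at a Benjamini-Hochberg adjusted p under 0.05. In liver the middle value of the log2 fold changes, over 10956 tested genes, was 0.33, against -0.01 in iWAT and -0.03 in GM, so that a typical liver gene was itself higher in LKO on the deposited scale. Liver changes of the genes of the list that were tested are therefore given on that scale, relative to this median, and after median-ratio scaling, which divides each library by the median ratio of its genes to their geometric means and brought the liver median to -0.04. Changes of other genes are given on the deposited scale unless stated.

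In liver, 2 of the 7 tested genes were called, *Akt1* and *Pik3ca*, both higher in LKO. On the deposited scale 38.3% of all tested liver genes were called higher and 5.49% lower, so the share of the list was near the background. The median log2 fold change of the 7 genes was 0.19, below the 0.33 of all genes. After median-ratio scaling neither gene was called. *Insr* and *Irs1* were called instead, both lower, on a scale where 15.2% of all liver genes were called higher and 17.9% lower. Which of these genes passed the test in liver thus depended on the scale. On both scales *Akt1*, *Irs2* and *Pik3ca* stood above the median gene, and *Akt2*, *Insr*, *Irs1* and *Pik3r1* below it.

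**Figure D1:**
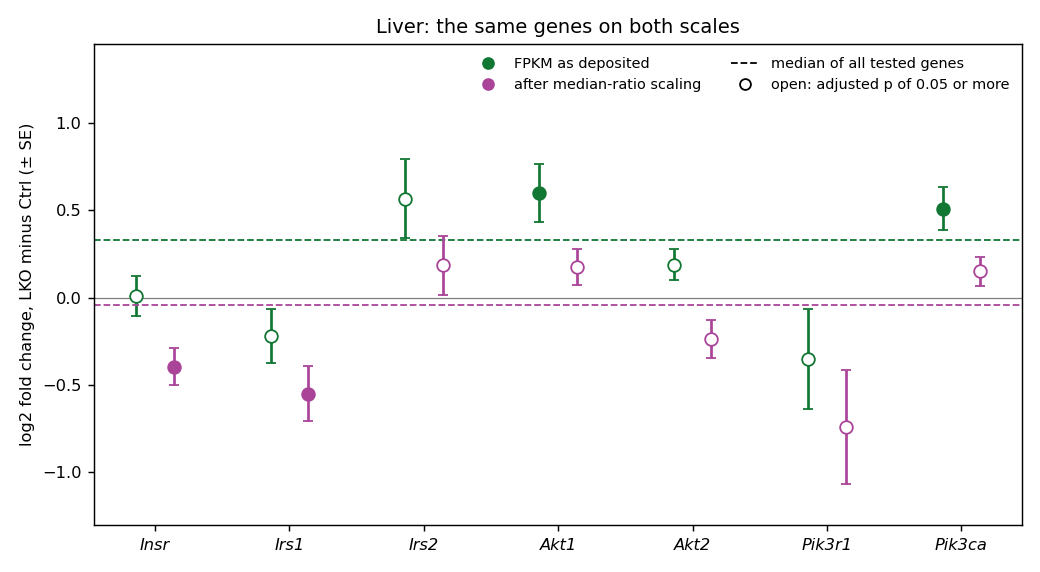
Log2 fold change in liver (LKO minus Ctrl, y axis, ± SE) of the 7 tested genes with FPKM as deposited (green) and after median-ratio scaling (purple), with filled points called at an adjusted p under 0.05 and dashed lines at the median of all tested genes. *Akt1* and *Pik3ca* are filled at 0.60 and 0.51 on the deposited scale, and *Insr* and *Irs1* at -0.40 and -0.55 after scaling.

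The insulin receptor transcript was not called in liver on the deposited scale. *Insr* (chr8:3150922-3279617, minus strand, mm10) was at 10.5, 12.1 and 9.84 FPKM in Ctrl and 10.3, 10.9 and 11.4 FPKM in LKO. The groups overlapped, and the log2 fold change was 0.01 ± 0.11 (adjusted p = 0.944). Relative to the median liver gene this was -0.32, and after median-ratio scaling it was -0.40 ± 0.11 (adjusted p = 0.0332).

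Neither adaptor was called in liver on the deposited scale. *Irs1* (chr1:82233105-82291439, minus strand) was at 4.27, 3.20 and 2.56 FPKM in Ctrl livers and at 2.69, 2.66 and 2.67 FPKM in LKO livers. The LKO values lay within the range of the Ctrl values, near its lower end. The log2 fold change was -0.22 ± 0.16 (adjusted p = 0.261) as deposited and -0.55 ± 0.16 (adjusted p = 0.0367) after scaling. As deposited it was -0.07 without Ctrl 1 (adjusted p = 0.683) and -0.35 without Ctrl 3 (adjusted p = 0.138). Ctrl 1 had the deepest liver library, 8.09 gigabases against 4.70 to 5.56 in the others. Fits with a library left out used the deposited scale only. *Irs2* (chr8:10986964-11008430, minus strand) was at 4.26, 4.01 and 5.84 FPKM in Ctrl and at 5.26, 7.47 and 10.01 FPKM in LKO. The lowest LKO library lay below the highest Ctrl library. The change was 0.56 ± 0.23 (adjusted p = 0.0750), 0.24 above the median gene, and 0.18 ± 0.17 (adjusted p = 0.417) after scaling. It passed the test with LKO 1 left out (0.77, adjusted p = 0.00455), on the deposited TPM (0.72, adjusted p = 0.0364) and with a replicate block (adjusted p = 0.0382), where 60.7%, 55.0% and 30.9% of all liver genes were called higher. It did not pass with quantile normalization (0.18, adjusted p = 0.427) or in a fit of all 24 libraries (adjusted p = 0.166). A 9530052E02Rik transcript overlaps *Irs2* on the opposite strand, and the library kit does not keep strand, so reads in the overlap cannot be assigned.

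The stretches before the annotated starts of both adaptor genes are shown because the adaptors are the first step below the receptor and *Irs1* was one of the genes whose call in liver depended on the scale. RefSeq windows (GRCm38.p6) existed for 7 of the 9 genes, with none for *Insr* and *Slc2a4*. The 250 bases before the start are printed 5′ to 3′ on the coding strand, with capitals marking CACGTG, an E-box that transcription factors of the basic helix-loop-helix class bind and that reads the same on both strands.
*Irs1*, chr1:82291440-82291689, minus strand: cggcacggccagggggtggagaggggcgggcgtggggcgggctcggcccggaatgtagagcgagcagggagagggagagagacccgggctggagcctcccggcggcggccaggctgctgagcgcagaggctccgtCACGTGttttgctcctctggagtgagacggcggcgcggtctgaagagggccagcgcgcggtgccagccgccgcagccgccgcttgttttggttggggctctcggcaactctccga
*Irs2*, chr8:11008930-11009179, minus strand: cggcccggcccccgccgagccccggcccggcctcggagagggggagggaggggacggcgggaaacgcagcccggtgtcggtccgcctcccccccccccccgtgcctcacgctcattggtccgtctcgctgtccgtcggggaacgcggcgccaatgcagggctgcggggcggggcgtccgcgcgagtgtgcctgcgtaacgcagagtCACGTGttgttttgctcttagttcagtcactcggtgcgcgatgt
Each window held 1 CACGTG, from 115 to 110 bases before the start in *Irs1* and from 44 to 39 bases before it in *Irs2*. The same letters occurred in 6.02% of the 32851 windows of all genes and in no window of *Akt1*, *Akt2*, *Pik3ca*, *Pik3r1* or *Tbc1d4*. The RefSeq start of *Irs2* lies upstream of the end of the gene given in the deposited table. GC content was 72.4% in *Irs1* and 72.8% in *Irs2*. Searched on both strands, GTAAACA, the core bound by FOXO factors, was in neither adaptor window and in 3.17% of all windows. TGATGCAAT, an element bound by ATF4 with C/EBP partners, was in neither and in 0.167% of all. The GC box GGGCGG was found at 2 places in *Irs1* and at 1 in *Irs2*, against 32.7% of all windows with at least 1. These matches describe the letters of the windows and were not tested against expression.

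Of the subunits of PI3-kinase, *Pik3ca* was called on the deposited scale and *Pik3r1* was not. *Pik3ca* (chr3:32436151-32468486, plus strand), the catalytic subunit p110α, was at 3.36, 3.41 and 2.96 FPKM in Ctrl livers and at 4.35, 5.36 and 5.42 FPKM in LKO livers. Every LKO library was above every Ctrl library. The log2 fold change was 0.51 ± 0.12 (adjusted p = 0.0181), 0.18 above the median gene, and 0.15 ± 0.08 (adjusted p = 0.196) after scaling. *Pik3r1* (chr13:101680761-101768217, minus strand), which encodes the regulatory p85α and its shorter forms, was at 8.64, 12.8 and 8.48 FPKM in Ctrl and at 7.76, 11.2 and 4.71 FPKM in LKO. These groups overlapped, and the change was -0.35 ± 0.29 (adjusted p = 0.329). Relative to the median gene this was -0.68, and after scaling it was -0.74 ± 0.33 (adjusted p = 0.121). With 1 library left out the change on the deposited scale ran from -0.61 to -0.06.

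Of the AKT kinases, *Akt1* was called on the deposited scale. *Akt1* (chr12:112653821-112674884, minus strand, with the microRNA gene *Mir6939* inside it) was at 17.8, 20.2 and 20.0 FPKM in Ctrl livers and at 23.8, 29.6 and 37.3 FPKM in LKO livers, without overlap. Its log2 fold change of 0.60 ± 0.17 (adjusted p = 0.0264), 1.52-fold on the log2(FPKM + 1) scale, was 0.27 above the median gene, and after scaling it was 0.17 ± 0.10 (adjusted p = 0.222). *Akt2* (chr7:27591552-27640826, plus strand), the isoform best known for metabolic insulin action, was at 24.1, 23.2 and 23.0 FPKM in Ctrl and at 26.9, 26.1 and 27.6 FPKM in LKO. The groups did not overlap, but the change was small, 0.19 ± 0.09 (adjusted p = 0.121), and lay below the median gene (-0.14 relative to it). It was -0.24 (adjusted p = 0.126) after scaling, but *Akt2* was called higher on the deposited TPM (0.31, adjusted p = 0.0264) and in the fit of all 24 libraries (0.19, adjusted p = 0.0385), where 55.0% and 42.6% of all genes were called higher in liver.

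In liver 3 of the 7 tested genes, *Akt1*, *Akt2* and *Pik3ca*, had groups that did not overlap, against 61.1% of all tested genes. On the log2(FPKM + 1) scale *Akt1* passed a limit of 1.5-fold, the fold that the study used, with an unadjusted p under 0.05, which 28.9% of all tested genes passed. With a pseudocount of 0.1, which shrinks folds less, *Akt1* (1.54-fold), *Pik3ca* (1.53-fold) and *Irs2* (1.57-fold, unadjusted p = 0.0372) passed it, as 35.6% of all tested genes did. The calls of *Akt1* and *Pik3ca* were lost with 1 of several libraries left out. Without Ctrl 1, Ctrl 2, Ctrl 3 or LKO 2 the adjusted p of *Akt1* rose to between 0.0733 and 0.0868 and that of *Pik3ca* to between 0.0567 and 0.0836, with changes of 0.54 to 0.63 and 0.46 to 0.54. Both stayed called without LKO 1 or LKO 3.

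*Slc2a4* (chr11:69942286-69948190, minus strand) and *Tbc1d4* (chr14:101442360-101609191, minus strand) were too low in liver to be tested. *Slc2a4* was between 0.0247 and 0.0913 FPKM in Ctrl and between 0.0436 and 0.0636 FPKM in LKO livers. *Tbc1d4* was between 0.558 and 0.691 FPKM in Ctrl and between 0.408 and 0.605 FPKM in LKO. Both pairs of groups overlapped.

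Within the LKO livers *Akt1*, *Irs2* and *Pik3ca* were lowest in LKO 1, which also held the most *Crif1* (5.40 FPKM). Summed marker levels of other liver cells moved with genotype too. Marker calls are on the deposited scale, where 38.3% of all tested liver genes were called higher and 5.49% lower. All 8 Kupffer cell and macrophage markers were called higher, and their sum was 113 to 117 FPKM in Ctrl and 249, 294 and 407 FPKM in LKO 1, 2 and 3. All 6 stellate cell and fibroblast markers were called higher (65.4 to 73.9 FPKM in Ctrl, 182 to 199 FPKM in LKO), as were all 5 cholangiocyte markers (30.7 to 31.8 and 41.6 to 88.9 FPKM) and 3 of 5 endothelial markers (24.3 to 28.7 and 32.5 to 51.7 FPKM). The median log2 fold change of the endothelial markers was 0.38, near the 0.33 of all liver genes. Of 6 monocyte and neutrophil markers 3 were tested and all 3 were called higher, and the sum of the 6 was 2.21 to 2.596 FPKM in Ctrl and 11.4 to 14.6 FPKM in LKO. Of 6 hepatocyte markers 1 was called, lower, and their sum was 57071 to 60219 FPKM in Ctrl and 69914, 54918 and 41990 FPKM in LKO 1, 2 and 3. None of these markers was at 0. In bulk tissue a change in the share of a cell type and a change in RNA per cell cannot be told apart, and the part of these markers in the results on *Akt1*, *Pik3ca*, *Insr* and *Irs1* was not tested.

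In iWAT no gene of the list was called by limma, where 0.0% of 12288 tested genes were called and 1842 had an unadjusted p under 0.05. The closest was *Irs1*, at 9.04, 10.5 and 11.6 FPKM in Ctrl and at 8.49, 7.10 and 7.65 FPKM in LKO. Every LKO library was below every Ctrl library, which held for 20.8% of all tested genes in either direction. The log2 fold change was -0.38 ± 0.11 (unadjusted p = 0.0123, adjusted p = 0.203). It was the only gene of the 9 with an unadjusted p under 0.05, and no gene of the list passed 1.5-fold as well, which 3.25% of all tested genes did (4.79% with a pseudocount of 0.1, again with none of the list). The 6 adipocyte markers summed to 22544 to 26570 FPKM in Ctrl and 27666 to 28778 FPKM in LKO, and the 5 endothelial markers to 125.5 to 147.5 FPKM in Ctrl and 186.8 to 243.3 FPKM in LKO, without overlap. The 6 hepatocyte markers summed to 14.4 to 25.9 FPKM in Ctrl and 36.9 to 54.5 FPKM in LKO iWAT, also without overlap, with 2 of them tested and neither called. None of all these markers was called or at 0, and their part in the *Irs1* values was not tested.

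*Irs2* and *Insr* varied among the LKO fat depots. *Irs2* was at 8.94, 5.15 and 8.70 FPKM in Ctrl and at 6.80, 12.8 and 24.9 FPKM in LKO, from below the mean of Ctrl to above all Ctrl values. The change was 0.74 ± 0.43 (adjusted p = 0.464). With 1 library left out it ran from 0.30 (without LKO 3) to 1.17 (without LKO 1). *Insr* was at 14.3, 14.7 and 15.1 FPKM in Ctrl and at 13.9, 21.2 and 21.1 FPKM in LKO, so LKO 1 lay below all Ctrl libraries and the other LKO libraries above them. The change was 0.31 ± 0.16 (adjusted p = 0.418), and without LKO 1 it was 0.50 (adjusted p = 0.0494), a fit in which 0.667% of all tested genes were called higher. LKO 1 and Ctrl 1 had the deepest iWAT libraries, 7.58 and 7.95 gigabases against 4.63 to 5.22 in the other iWAT libraries.

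The GLUT4 transcript in iWAT was highest in those same libraries. *Slc2a4* was at 143, 87.1 and 102 FPKM in Ctrl and at 144, 105 and 91.4 FPKM in LKO, with replicate 1 the highest in both genotypes. The groups overlapped (0.04 ± 0.23, adjusted p = 0.956). The 6 markers of skeletal muscle fibres, which also express *Slc2a4*, summed to 450 FPKM in Ctrl 1 and 83.7 FPKM in LKO 1, to between 28.4 and 699 FPKM in the other iWAT libraries, and to between 76707 and 85187 FPKM in GM. Their part in the *Slc2a4* values was not tested. The other genes overlapped between the groups: *Tbc1d4* was at 12.9 to 13.3 FPKM in Ctrl and 10.8 to 13.4 FPKM in LKO, *Akt1* at 45.0 to 56.6 and 38.9 to 49.5 FPKM, *Akt2* at 99.7 to 118 and 93.7 to 110.2 FPKM, and *Pik3ca* at 6.77 to 6.98 and 6.79 to 7.78 FPKM.

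In GM no gene of the list was called by limma or had an unadjusted p under 0.05, where 0.0% of 10877 tested genes were called and 743 had an unadjusted p under 0.05. *Slc2a4* was higher here than in the other tissues, at 207, 208 and 214 FPKM in Ctrl and at 169, 207 and 202 FPKM in LKO. The highest LKO library (207.02 FPKM) lay just under the lowest Ctrl library (207.15 FPKM), so the groups did not overlap, which held for 11.6% of all tested genes. The change was -0.13 ± 0.08 (adjusted p = 0.847). *Insr* was at 10.6 to 11.2 FPKM in Ctrl and 10.8 to 11.7 FPKM in LKO, a change of 0.03 ± 0.07, and *Irs1* was at 12.4 to 13.8 and 11.8 to 15.9 FPKM. *Irs2* was at 3.50 to 4.91 FPKM in Ctrl and 2.83 to 3.83 FPKM in LKO (-0.23 ± 0.14, adjusted p = 0.832). No gene of the list passed the 1.5-fold limit, which 0.901% of all tested GM genes passed (1.64% with a pseudocount of 0.1, again with none of the list).

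**Figure D2:**
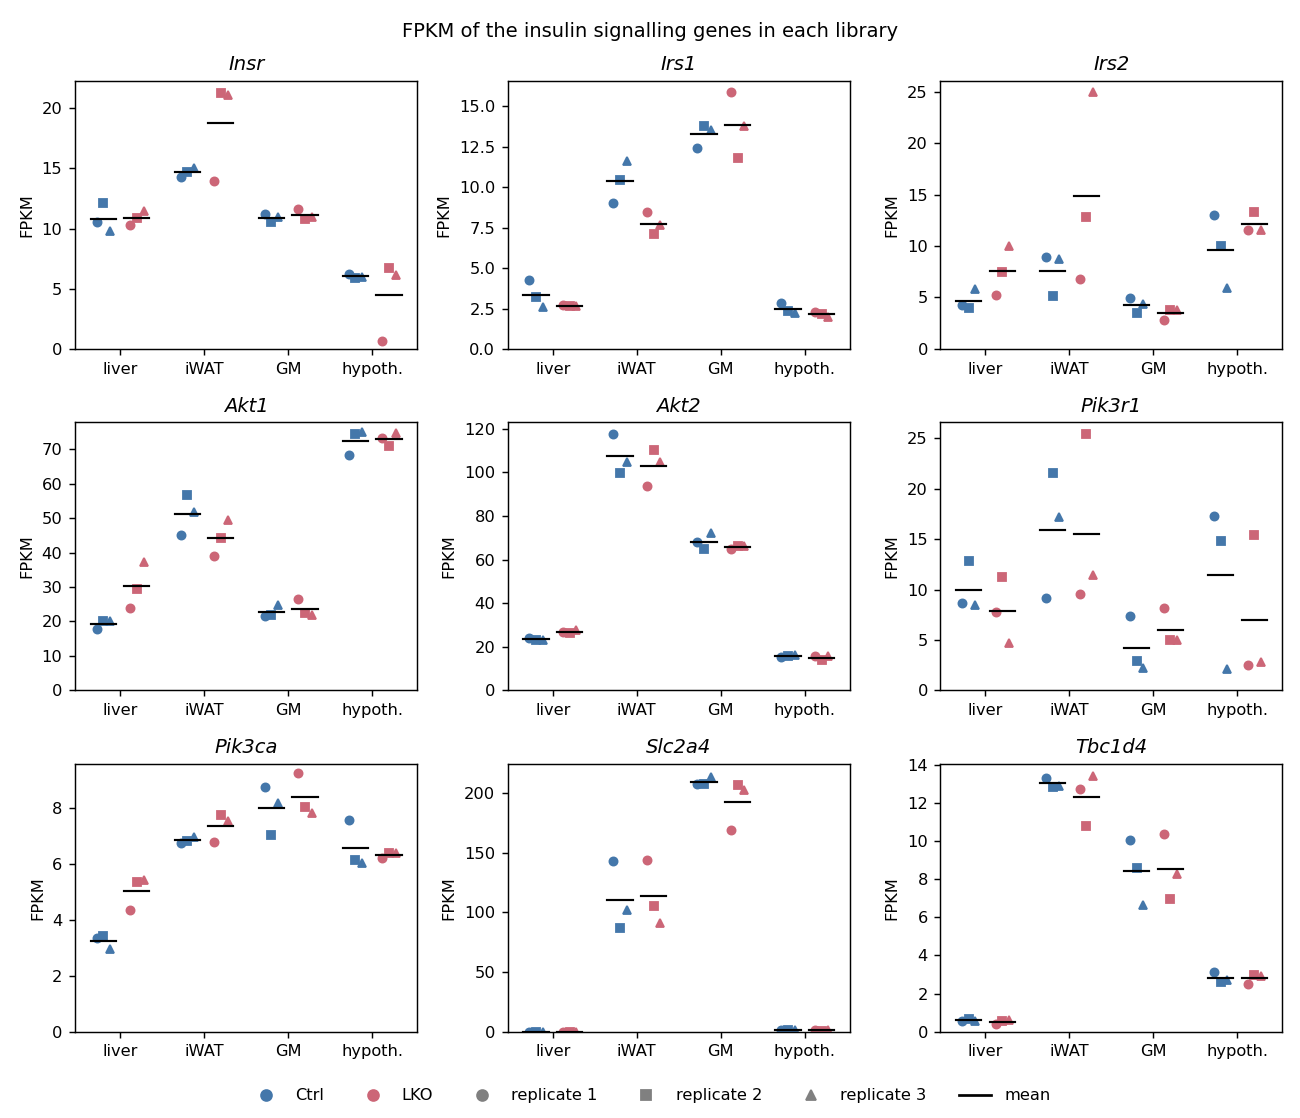
FPKM (y axis) of each of the 9 genes in the 24 libraries by tissue, with Ctrl in blue, LKO in red, a symbol for each replicate number and a bar at the mean of 3. LKO livers lie above Ctrl livers for *Akt1*, *Akt2* and *Pik3ca*, *Slc2a4* is near 0 in liver and near 200 in GM, and *Pik3r1* is widely spread within groups.

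The LKO effect was then compared between liver, iWAT and GM in a limma fit over their 18 libraries. The interaction was called for *Akt1* (adjusted p = 0.0167) and *Pik3ca* (adjusted p = 0.0344) and for none of the other 7 genes, against 34.5% of 13734 tested genes. The log2 effect on *Akt1* was higher in liver by 0.80 ± 0.20 than in iWAT (adjusted p = 0.00759) and by 0.55 ± 0.20 than in GM (adjusted p = 0.0460). For *Pik3ca* the differences were 0.42 ± 0.14 (adjusted p = 0.0314) and 0.44 ± 0.14 (adjusted p = 0.0269). With 1 of the 18 libraries left out in turn, *Akt1* stayed called in all 18 fits and *Pik3ca* in 7. The median gene differed by 0.28 between liver and iWAT and by 0.32 between liver and GM on the same scale. After median-ratio scaling the interaction was called for *Insr* (adjusted p = 0.0157) and *Irs1* (adjusted p = 0.0467) in place of *Akt1* and *Pik3ca*, on a scale where it was called for 24% of all tested genes (3297 of 13734). The effect on *Insr* was then lower in liver than in iWAT by 0.70 on the log2 scale (-0.70 ± 0.16, adjusted p = 0.00639), and that on *Irs1* lower than in GM (-0.64 ± 0.19, adjusted p = 0.0271).

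**Figure D3:**
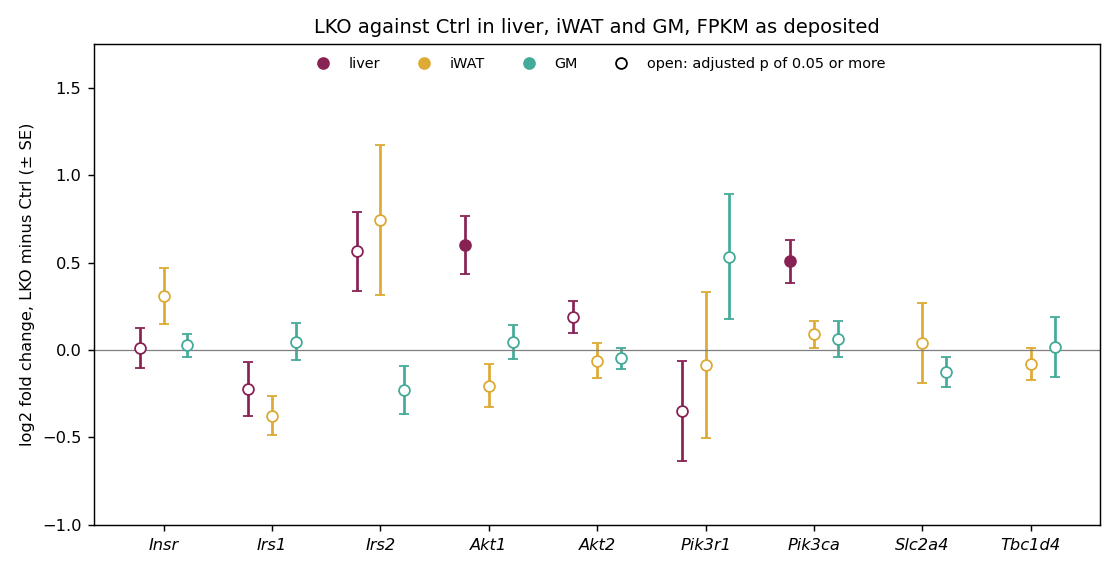
Log2 fold change (LKO minus Ctrl, y axis, ± SE) of the 9 genes in liver, iWAT and GM with FPKM as deposited, where filled points are called at an adjusted p under 0.05. *Akt1* and *Pik3ca* in liver are the filled points, and *Slc2a4* and *Tbc1d4* have no liver point because they were too low to be tested.

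Ratios of partner genes within a library do not depend on how libraries are scaled. In liver the log2 ratio of *Akt2* over *Akt1* was 0.44, 0.21 and 0.20 in Ctrl and 0.18, -0.18 and -0.44 in LKO, without overlap and with a difference of means of -0.43. *Pik3r1* over *Pik3ca* was 1.36, 1.91 and 1.52 in Ctrl and 0.84, 1.07 and -0.20 in LKO, also without overlap, a difference of -1.03. *Irs2* over *Irs1* was 0.00, 0.33 and 1.19 in Ctrl and 0.97, 1.49 and 1.90 in LKO, a difference of 0.95 with overlapping groups. In iWAT *Irs2* over *Irs1* was -0.02, -1.02 and -0.42 in Ctrl and -0.32, 0.85 and 1.70 in LKO, a difference of 1.23 with overlap. *Tbc1d4* over *Slc2a4* differed by -0.13 in iWAT and 0.15 in GM, less than the SD of either group. With 3 libraries against 3 the two-sided exact permutation test cannot go below p = 0.1, and none of the 12 ratios fell below an adjusted p of 0.6, so no ratio passed the test.

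**Figure D4:**
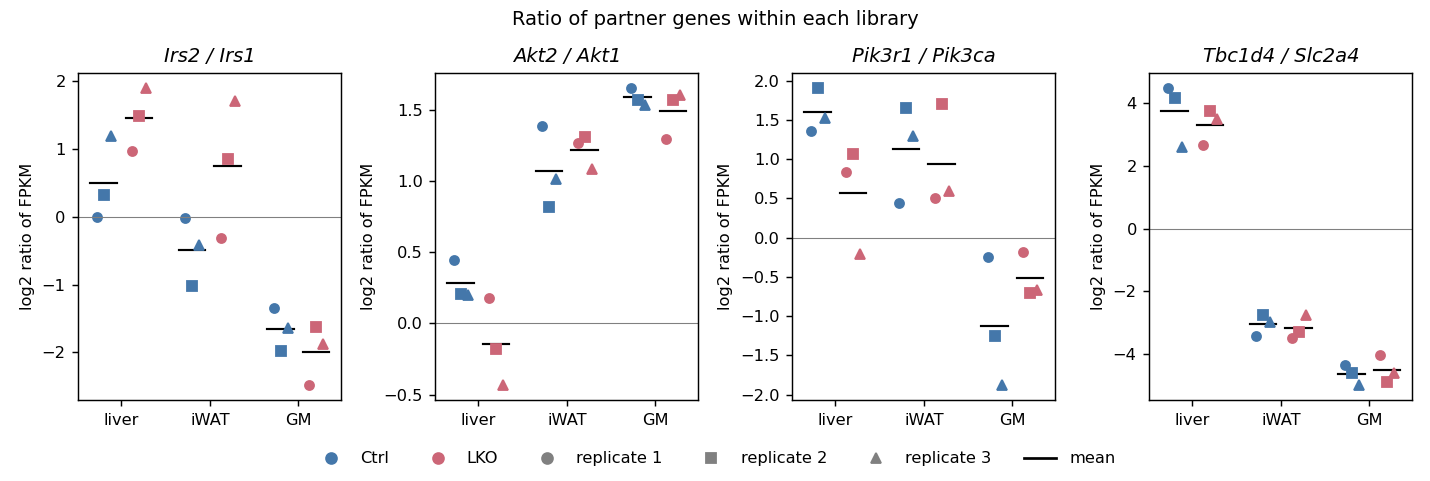
Log2 ratio of FPKM of partner genes within each library (y axis) in liver, iWAT and GM, with Ctrl in blue, LKO in red, a symbol for each replicate number and a bar at the mean of 3. In liver the LKO points lie below the Ctrl points for *Akt2* over *Akt1* and for *Pik3r1* over *Pik3ca*.

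The genes differed in level between the tissues. In Ctrl mice *Slc2a4* averaged 209.6 ± 3.58 FPKM in GM and 111 ± 29.0 FPKM in iWAT (SD, n = 3), 1.41 ± 0.00862 FPKM in hypothalamus and 0.0515 ± 0.0351 FPKM in liver, and no neighbours in this order overlapped. *Tbc1d4*, its partner, was highest in iWAT (13.0 ± 0.258 FPKM), then GM (8.44 ± 1.71), hypothalamus (2.82 ± 0.264) and liver (0.602 ± 0.0766), again without overlap. *Akt2* ran from iWAT (107 ± 9.28 FPKM) over GM (68.2 ± 3.75) and liver (23.4 ± 0.620) to hypothalamus (15.8 ± 0.494), and *Akt1* from hypothalamus (72.5 ± 3.63) over iWAT (51.1 ± 5.83) and GM (22.7 ± 1.83) to liver (19.3 ± 1.34), both without overlap between neighbours. By FPKM, which is per kilobase, *Akt2* exceeded *Akt1* in all Ctrl libraries of liver, iWAT and GM, and *Akt1* exceeded *Akt2* in those of hypothalamus. The FPKM of *Akt2* was 3.60 to 3.703 times its coverage per gigabase, against 1.00 to 1.15 times for the other 8 genes, so its level beside other genes rests on which deposited column is read. By coverage per gigabase the order of the pair turned in Ctrl, with *Akt2* at 6.36 to 6.70 and *Akt1* at 16.7 to 19.0 in liver. These values were 27.1 to 31.9 and 42.4 to 53.3 in iWAT, and 17.9 to 19.5 and 20.3 to 23.4 in GM.

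*Irs1* was highest in GM (13.3 ± 0.719 FPKM) and iWAT (10.4 ± 1.30) and lower in liver (3.34 ± 0.860) and hypothalamus (2.48 ± 0.333), the last pair overlapping. *Irs2* ran from 9.65 ± 3.56 FPKM in hypothalamus through iWAT (7.59 ± 2.12) and liver (4.70 ± 0.991) to GM (4.25 ± 0.707), and every pair of neighbours overlapped. *Insr* was highest in iWAT (14.7 ± 0.390 FPKM), alike in GM (10.9 ± 0.322) and liver (10.8 ± 1.16), whose ranges overlapped, and lowest in hypothalamus (6.02 ± 0.193). *Pik3ca* ran from 8.01 ± 0.886 FPKM in GM through iWAT (6.86 ± 0.110) and hypothalamus (6.60 ± 0.862), which overlapped, to 3.24 ± 0.251 FPKM in liver. *Pik3r1* averaged 16.0 ± 6.28 FPKM in iWAT, 11.4 ± 8.10 in hypothalamus, 9.99 ± 2.47 in liver and 4.20 ± 2.81 in GM, of which only liver and GM did not overlap as neighbours.

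*Pik3r1* was widely spread within several groups. The deposited values are per gene, so whether its reads, or those of *Insr*, were assigned to other transcripts in some libraries cannot be seen, which also bears on the ratio of *Pik3r1* over *Pik3ca*. In hypothalamus it was at 17.3, 14.8 and 2.17 FPKM in Ctrl and at 2.56, 15.4 and 2.81 FPKM in LKO, so that high and low libraries occurred in both genotypes. The highest Ctrl value was 7.97 times the lowest, a spread that 0.224% of 13828 genes reached in these libraries. In GM Ctrl libraries it was at 7.42, 2.95 and 2.22 FPKM, against 8.16, 4.96 and 4.96 FPKM in LKO (0.53 ± 0.36, adjusted p = 0.849). With 1 library left out the change in GM ran from 0.25 to 0.95. In iWAT *Pik3r1* was at 9.16, 21.5 and 17.2 FPKM in Ctrl and at 9.61, 25.4 and 11.4 FPKM in LKO (-0.09 ± 0.42). The deposited coverage of *Pik3r1*, divided by library size, differed 8.26 times between hypothalamic Ctrl libraries. Library size was itself estimated from coverage and FPKM, so this value is not a second measure of the spread. *Insr* had one such library as well, the hypothalamus of LKO 1, at 0.677 FPKM against 6.69 and 6.16 FPKM in the other LKO and 5.85 to 6.23 FPKM in the Ctrl hypothalami, a spread that 0.130% of genes reached.

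Of 73 other listed insulin pathway genes, all in the table, 58 were tested in liver, where 24 were called higher and 3 lower, beside 38.3% and 5.49% of all liver genes, with a median log2 fold change of 0.32, next to 0.33 for all genes. After median-ratio scaling 8 were called higher and 15 lower, beside 15.2% and 17.9% of all liver genes. The same shares apply to the lists that follow, each of which is part of the 58. The 5 tested genes of AKT activation were all called higher, among them *Mtor* (0.88 ± 0.18, adjusted p = 0.01005), the kinase of both mTOR complexes, *Pdpk1* (0.45 ± 0.12), which phosphorylates AKT, and *Mlst8* (0.45 ± 0.13), an mTOR complex subunit. *Mtor* was the only one called after scaling. The median of these 5 genes was 0.45, next to 0.33 for all genes. Of 11 tested inhibitors 5 were called higher and none lower, and after scaling 3 and 2, so that the deposited count was near the 38.3% of all genes. *Trib3*, a pseudokinase that binds AKT, was at 1.82, 0.961 and 1.74 FPKM in Ctrl and at 10.7, 75.9 and 199.9 FPKM in LKO livers (4.51 ± 0.91, adjusted p = 0.00980), and with 1 library left out the change ran from 3.60 to 5.65. *Grb10* (0.95 ± 0.25), a receptor-binding inhibitor, and *Ptpn2* (0.82 ± 0.16), a phosphatase, were also higher. All 3 stayed called after median-ratio scaling, but *Grb10* was not called with quantile normalization (0.50, adjusted p = 0.0871) or with any 1 Ctrl library or LKO 2 left out (adjusted p from 0.0561 to 0.0721). The change of *Ptpn2* was smaller on coverage per gigabase, 0.47 (adjusted p = 0.0272).

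The counts of the remaining pathway lists also changed with the scale. Of 12 AKT substrates and growth genes 5 were called higher, beside 38.3% of all liver genes, and after scaling, where 15.2% of all liver genes were higher and 17.9% lower, none was higher and 3 were lower, *Foxo3*, *Rps6kb1* and *Pde3b* (named after their values were seen). Highest on the deposited scale were *Eif4ebp1* (1.06 ± 0.32), a repressor of translation, *Akt1s1* (0.55 ± 0.16) and *Rheb* (0.54 ± 0.12). Of 15 tested genes of glucose transport 5 were called higher and 1 lower, beside 38.3% and 5.49% of all liver genes, and after scaling 1 was higher and 5 were lower, beside 15.2% and 17.9%. *Tbc1d1* (1.17 ± 0.21), the relative of *Tbc1d4*, stayed called after scaling while *Stxbp3* (0.64 ± 0.14) did not. On coverage per gigabase the change of *Tbc1d1* was 0.46 (adjusted p = 0.0181). *Pik3cd* (0.81 ± 0.13), the catalytic subunit known from leukocytes, was called on both scales. The macrophage, monocyte and neutrophil sums were higher in the same LKO livers, and their part in the *Pik3cd* value was not tested. *Grb2* (0.36 ± 0.10), a signalling adaptor, was called as deposited but not after scaling, where its sign turned (-0.05). Of the genes named from these lists, *Pdpk1*, *Mlst8*, *Eif4ebp1*, *Akt1s1*, *Rheb*, *Stxbp3* and *Grb2* each lost the call with at least 1 library left out. With the replicate block *Mlst8* (adjusted p = 0.0643) and *Grb2* (adjusted p = 0.0738) also lost it. With no filter *Mlst8* (adjusted p = 0.0503) and *Eif4ebp1* (adjusted p = 0.0614) lost it. *Mtor*, *Trib3*, *Ptpn2*, *Tbc1d1* and *Pik3cd* kept the call in each such fit.

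Transcripts that insulin controls in liver moved in both directions, and none of the 6 tested turned its sign on scaling. *Igfbp1*, which insulin represses, was at 82.3, 115 and 167 FPKM in Ctrl and at 295, 609 and 826 FPKM in LKO livers (2.18 ± 0.40, adjusted p = 0.00735). *Srebf1*, which insulin induces, was at 109, 65.7 and 54.3 FPKM in Ctrl and at 43.9, 22.7 and 25.0 FPKM in LKO (-1.29 ± 0.32, adjusted p = 0.0188). The call of *Srebf1* was lost without Ctrl 1, Ctrl 2 or LKO 2 (adjusted p from 0.0546 to 0.0681). *Ppargc1a*, a coactivator of gluconeogenic genes, was higher (0.71 ± 0.10, adjusted p = 0.00340) but not called with quantile normalization (0.30, adjusted p = 0.0595), and *G6pc*, glucose-6-phosphatase, which insulin represses, was lower (-0.68 ± 0.11, adjusted p = 0.00489; chosen for naming after its value was seen).

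In iWAT and GM no other pathway gene was called by limma in the fit of each tissue, with 14 of 65 and 3 of 62 at an unadjusted p under 0.05, beside 1842 of 12288 and 743 of 10877 of all tested genes. Past the 1.5-fold limit in iWAT, as were 3.25% of all tested genes, were *Srebf1* (191 ± 6.21 FPKM in Ctrl and 121 ± 11.4 FPKM in LKO, SD, n = 3; -0.65 ± 0.09, adjusted p = 0.0884), *Pck1* (1.21 ± 0.29), *Pnpla3* (-0.98 ± 0.31) and *Pik3ip1*, a PI3-kinase inhibitor (0.63 ± 0.24). In the fit of all 24 libraries *Pik3ip1* was called (adjusted p = 0.0337), as were 4.14% of all tested genes in iWAT. In GM, where 0.901% of all tested genes passed the limit, they were *Foxo1*, a transcription factor that AKT inactivates, and *Tbc1d1*. *Foxo1* was at 3.30, 3.25 and 3.17 FPKM in Ctrl and at 6.17, 5.97 and 7.70 FPKM in LKO, without overlap (0.84 ± 0.10, adjusted p = 0.285), and it was called in the fit of all 24 libraries (adjusted p = 0.00463), as were 0.177% of all tested genes in GM. *Tbc1d1* was at 8.37, 7.20 and 11.8 FPKM in Ctrl and at 5.81, 5.75 and 4.14 FPKM in LKO, also without overlap (-0.69 ± 0.19, adjusted p = 0.545).

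The genes whose pattern was most like each member were sought over the 18 libraries of liver, iWAT and GM, after subtracting the Ctrl mean of each tissue, among 9216 genes tested in all 3 tissues. The closest to *Akt1* were *Lamb2* (Pearson r = 0.97) and *A230046K03Rik* (0.97), and to *Pik3ca* were *Wdr48* (0.97) and *Galc* (0.97). *Irs2* was most like *2810013P06Rik* (0.93) and *Caskin2* (0.88), *Insr* like *Ccnl2* (0.91) and *Kmt2d* (0.89), *Akt2* like *Tarsl2* (0.89) and *Dusp23* (0.88), and *Irs1* like *Il11ra1* (0.87) and *Abhd14a* (0.86). Values were lower for *Tbc1d4* (*Mgat2* 0.78, *C2* 0.78), *Slc2a4* (*Snrpn* 0.74, *Acss2* 0.73) and *Pik3r1* (*Cnp* 0.72, *Slc25a45* 0.71). These libraries share the genotype contrast and the scale of the liver libraries, and the values are descriptions.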

How the data were processed

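Per the labels, total RNA was made into libraries with a TruSeq kit that does not keep strand and sequenced as paired ends. The authors' processing notes list FastQC 0.11.5, Trimmomatic 0.32, HISAT2 2.0.5, Bowtie2 2.2.6, STAR 2.5.2b and StringTie 1.3.3b with build mm10. The deposited tables give FPKM in a joined table of 24 libraries and, per library, the FPKM, TPM and coverage that StringTie estimated for each gene. The deposited coverage was read as a signal and set against FPKM to estimate library size. No read counts were used, so no count model was run. The members and gene lists were chosen with earlier results of these data known.

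FPKM were tested as log2(FPKM + 1) with limma 3.58.1 in R 4.3.3 (lmFit, eBayes with trend), within each tissue, over genes that 3 or more of the 6 libraries held at 1 FPKM or above, two-sided, with Benjamini-Hochberg adjustment. Fold changes on this scale understate those of low genes. Differences between tissues were contrasts of 1 fit over 18 libraries. Ratios were tested by exact permutation. Groups came from the labels, and the hypothalamus gave levels only. Alternatives were a pseudocount of 0.1, no filter, TPM, coverage per gigabase (chosen after seeing the data), median-ratio and quantile scaling, all 24 libraries, a replicate block, the limit of 1.5-fold with an unadjusted p under 0.05, and each library left out. Of other pathway genes, up to 3 per list and tissue with the largest change among those called were named, or past 1.5-fold where none was called, with *Igfbp1* always. Some genes that this rule named are not reported here. The fits were tested on simulated data. Protein sequences were not used here. Analyses used Python 3.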

Additional observations from a re-analysis of the deposited data

Results flagged for a closer look

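The LKO effect on *Akt1* differed between tissues by the interaction test over all tested genes: the log2 effect was 0.80 higher in liver than in iWAT and 0.55 higher in liver than in GM. The LKO effect on *Pik3ca* differed likewise, by 0.42 between liver and iWAT and by 0.44 between liver and GM. After median-ratio scaling the corresponding differences were 0.38 and 0.10 for *Akt1* and 0.08 and 0.07 for *Pik3ca*, with adjusted p of 0.0519, 0.662, 0.610 and 0.692. All groups held 3 libraries, too few for the test of a single library standing apart.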

How the results depend on the processing

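Over the 72 results and their 502 alternative values other than leaving out a library, 451 kept their direction and side of the threshold (counts within 1.5 times). In liver 2 members were called, and 4 on the deposited TPM (where 55.0% of all liver genes were called higher and their median change was 0.47) and 1 by the 1.5-fold limit with an unadjusted p. Median-ratio scaling and quantile normalization each also called 2, but *Insr* and *Irs1* in place of *Akt1* and *Pik3ca*. Directions turned in liver for *Insr* (-0.40 with median-ratio scaling, -0.36 with quantile normalization), *Akt2* (-0.24 and -0.14) and *Grb2* (-0.054 and -0.0044), and the difference of the *Pik3ca* effect between liver and iWAT or GM became -0.022 or -0.0031 with quantile normalization. With all 24 libraries in 1 fit, 5 other pathway genes were called in iWAT, where 4.14% of all tested genes were (among them *Irs3*, *Pik3r2* and *Stxbp3*, lower, and *Pik3ip1*, higher) and 1 in GM, where 0.177% were (*Foxo1*, adjusted p = 0.00463, against 0.0592 to 0.816 in its other alternatives). The cause of these changes was not tested. With 1 library left out, 376 of 492 values kept their direction and side. The liver count then ran from 0 to 3 members and from 9 to 37 other pathway genes. The iWAT count ran from 0 to 1 member (*Insr*) and from 0 to 1 other gene. The interaction count ran from 1 to 4 members. In liver 3 members were called without LKO 1, where 60.7% of all liver genes were called higher. *Insr* was called without iWAT LKO 1, where 0.667% of all tested genes were called higher. Shares of all genes in the other fits with a library left out are not given, so these ranges are not a result about the list. Fewer libraries enter each such fit. Uncalled changes that turned sign ran, in liver, from -0.050 to 0.087 for *Insr*. In iWAT they ran from -0.11 to 0.0070 for *Akt2*, -0.49 to 0.17 for *Pik3r1*, -0.14 to 0.24 for *Slc2a4* and -0.14 to 0.0037 for *Tbc1d4*. In GM they ran from -0.0040 to 0.045 for *Insr*, -0.049 to 0.15 for *Irs1*, -0.038 to 0.11 for *Akt1*, -0.017 to 0.12 for *Pik3ca* and -0.13 to 0.14 for *Tbc1d4*. No ratio moved by more than 1 SD in 96 alternatives. Same-numbered Ctrl and LKO libraries deviated together with r of 0.028 to 0.15 in liver, -0.12 to 0.30 in iWAT and 0.050 to 0.35 in GM. In these tissues 4, 3 and 4 of 6 libraries correlated best with their own number. These values cannot settle whether the numbers pair the samples. The main fits treated the libraries as unpaired. With a replicate block 3 members were called in liver, *Irs2* (0.56, adjusted p = 0.0382) beside *Akt1* and *Pik3ca*, none in iWAT or GM, and 2 by the interaction. Depth in reads is unknown, since only FPKM, TPM and coverage were used.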
